A study of Bos taurus with 5 samples.

Results

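The genes of respiratory complexes II to V were followed in 5 RNA sequencing libraries of cattle (Bos taurus). The tissue labels were brain, skin, lung, heart and limb, with 1 library each. Members were taken by gene symbol: SDHA to SDHD, CYC1, CYCS, symbols beginning with UQCR, with COX4 to COX8 or with ATP5, and the mitochondrially encoded CYTB, COX1, COX2, COX3, ATP6 and ATP8. This gave 53 of the 27607 genes in the table, 47 of them nuclear and 6 mitochondrially encoded. There were 4 genes of complex II, 10 of complex III, cytochrome c alone, 18 of complex IV and 20 of complex V.

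No treatment is named, and the strain, age and number of animals or cells behind a library are not stated in the labels. Per the labels' protocol, lysis, pre-amplification and library preparation followed the Fluidigm C1-HT chip, a microfluidic device made for single cells. Without replicates there is no error and no test, and every difference below describes these libraries only. Fewer cells of a type and less RNA per cell cannot be told apart.

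The respiratory chain sits in the inner mitochondrial membrane. Complex II (succinate dehydrogenase) also belongs to the citric acid cycle and passes electrons from succinate to ubiquinone. Complex III (the cytochrome bc1 complex) passes them from ubiquinol to cytochrome c, and complex IV (cytochrome c oxidase) from cytochrome c to oxygen. Complexes III and IV pump protons, and complex V (ATP synthase) uses their return to make ATP. Complex II is built from nuclear genes only, whereas complexes III, IV and V join nuclear subunits to subunits encoded in mitochondrial DNA. Tissues with a high demand for ATP, heart and skeletal muscle above all, are known for large amounts of these complexes and for muscle isoforms of several complex IV subunits.

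Values were taken as FPKM, read fragments scaled to transcript length and to the library's mapped total, though no source names the unit. Only if that holds can levels of different genes be set side by side per length. Whether the reads cover whole transcripts or mainly their ends is not stated in the labels, and the second case would raise short transcripts against long ones. The count of genes with 1 FPKM or more was 4868 under the skin label, 5075 under the limb label, 5707 under the lung label, 6318 under the brain label and 6394 under the heart label. No counting interval can be given, as read totals were not analysed. The labels were checked against 6 defining markers per tissue. All 6 neuronal markers were listed at 0 under the brain label. In the skin-labelled library only KRT10 of the keratinocyte markers was above 0, at 20.8 FPKM. KRT10 was also listed at 27.8 FPKM under the brain label, 27.2 under the heart label, 18.9 under the limb label and 7.43 under the lung label. KRT5 was listed at 51 FPKM under the lung label. The lung-labelled library had 0 of the 6 alveolar markers, while SFTPC was listed at 34.2 FPKM under the limb label. Under the heart label only ACTC1 of the cardiomyocyte markers was above 0, with 5.21 FPKM, against 230.8 FPKM under the limb label and 57.7 FPKM under the brain label. Under the limb label only ACTA1 of the skeletal muscle markers was above 0, with 37.6 FPKM. The libraries are therefore named by label only, and no direction below is one for a tissue.

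The respiratory genes were abundant in every library. Of the 53 members, 47 were above 0 in all 5 libraries, and 48 had a mean of at least 10 FPKM, the minimum used for the counts below. By mean level 29 members stood at 1000 FPKM or more, 18 between 100 and 1000 FPKM and 1, SDHA, between 10 and 100 FPKM. Together they took 11.9% of the summed FPKM under the skin label, 10.6% under the lung label, 9.39% under the heart label, 8.79% under the brain label and 8.54% under the limb label. Between 28 members, under the brain label, and 32, in the skin- and lung-labelled libraries, were among the top 1% of genes of a library.

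**Figure D1:**
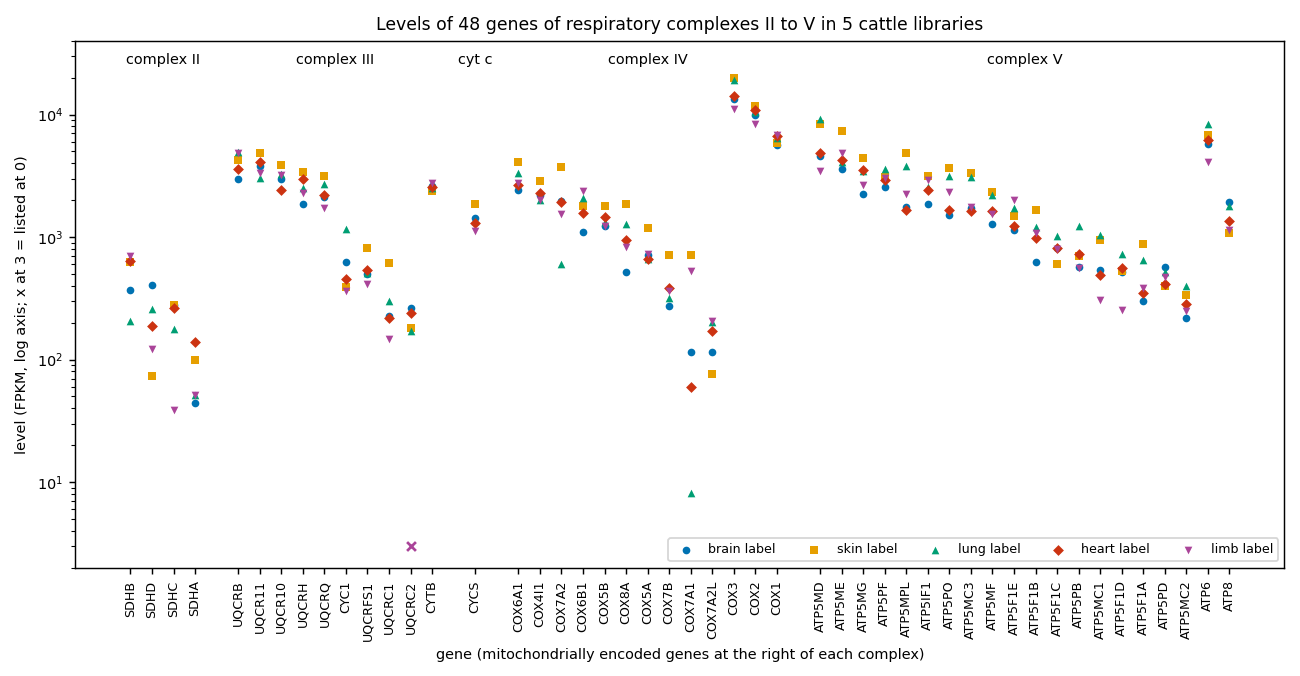
Level in FPKM (log axis) of the 48 genes with a mean level of at least 10 FPKM, by complex, with 1 point per library and mitochondrially encoded genes at the right of each complex. Most genes kept their 5 points close together, COX7A1 spread between 709.95 FPKM (skin label) and 8.19 FPKM (lung label), and the cross marks UQCRC2, listed at 0 under the limb label.

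The spread over libraries was described for each gene as the ratio of the highest to the lowest library after adding 1 FPKM to each. The members' median ratio was 1.996, and 24 of the 48 stayed under 2. A gene was called variable at a ratio of at least 4, which held for 6 members (COX7A1, COX7A2, UQCRC1, UQCRC2, SDHC and SDHD). Over all genes with a mean level of at least 10 FPKM, 76.3% were variable. That background is made mostly of low genes, with 3652 of the 5010 between 10 and 100 FPKM. By level, 1 of 29 members with a mean of 1000 FPKM or more was variable, against 11% of all such genes, and 5 of 18 members between 100 and 1000 FPKM, against 44.6%. The 1 member between 10 and 100 FPKM was not variable, in a class where 90.1% of genes were. Within the 2 upper classes the members' median ratio was 1.80 and 2.87, against 1.98 and 3.57 over all genes. A ratio of at least 2 was reached by 24 of 48 members, against 94% of the 5010 genes, a share that was not divided by level.

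**Figure D2:**
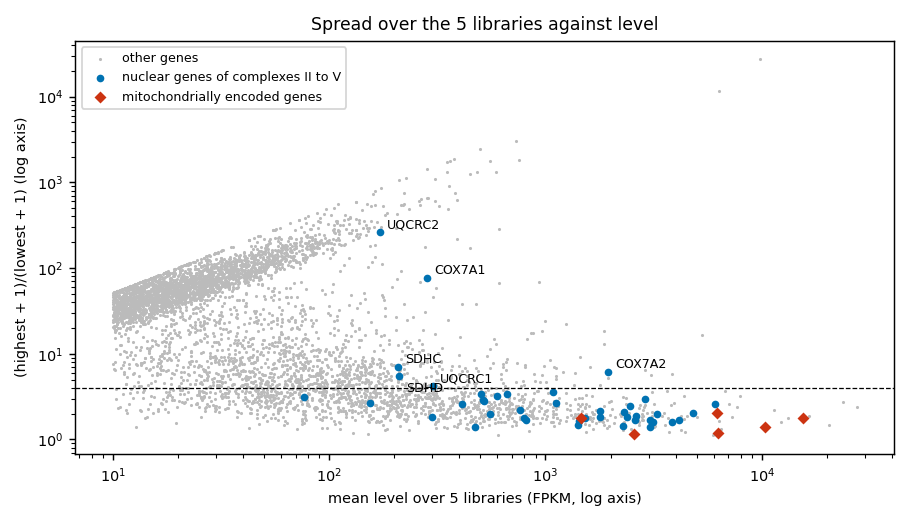
Ratio of the highest to the lowest library after adding 1 FPKM (log axis) against the mean level over the 5 libraries in FPKM (log axis), with 1 point per gene with a mean of at least 10 FPKM. The dashed line marks the ratio of 4, above which 6 genes of complexes II to V are named, and the upper band of points holds genes listed at 0 in at least 1 library.

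Only UQCRC2, of the 48 members, was listed at 0 in a library, whereas 50.3% of all genes with a mean level of at least 10 FPKM were. Among genes between 100 and 1000 FPKM, the class of UQCRC2, the share was 9.65%, and none of the 29 members at 1000 FPKM or more was listed at 0, against 0.917% of all such genes. Genes enriched in 1 library (10 FPKM or more, with a ratio of at least 4 to the next highest library after adding 1) included none of the members, against 4.56% of all genes under the brain label, 4.54% under the skin label, 5.9% under the lung label, 4.91% under the heart label and 4.19% under the limb label. Genes depleted in 1 library by the same ratio, with at least 10 FPKM in the other 4, included SDHC and UQCRC2 under the limb label, where 11.2% of all genes were depleted. COX7A1 was depleted under the lung label, where 9.19% were. No member was depleted under the skin, heart or brain label, where 12.7%, 4.27% and 2.76% of all genes were. The shares of enriched and depleted genes were not divided by level. The enriched shares were taken over 7497 genes. Only 1358 genes had a mean of at least 100 FPKM, as did 47 of the 48 members. The absence of enriched members can therefore not be told apart from their high level.

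Nuclear members stood high under the skin label. Of the 42 nuclear members with a mean of at least 10 FPKM, 24 were highest there, 9 under the lung label, 4 under the brain label, 4 under the limb label and 1 under the heart label. With the mitochondrially encoded genes, 26 of 48 were highest under the skin label, against 24.1% of all genes of that level. By the same count 10 were highest under the lung label, against 25.4%, and 6 under the limb label, against 18.9%. Under the brain label 5 were, against 17.7%, and under the heart label 1, against 13.9%. Among genes with a mean level of at least 1000 FPKM, 20 of 29 members were highest under the skin label, against 30.7% of all. The lowest value was under the brain label for 18 of 48 members, against 9.04% of all genes, and for 14 of the 29 most abundant, against 29.4%. It was under the limb label for 15 of 48, against 17.2%. For 6 of 48 it was under the lung label, against 15.2%, and for 6 under the skin label, against 17.4%. For 3 it was under the heart label, against 13.3%. The counts under the heart label depended on scaling. Under rescaling by the median ratio or the trimmed mean, SDHC, UQCRC2, UQCRH, CYTB, COX1 and COX2 joined SDHA as highest there. ATP5MC3 and ATP5MPL, lowest there as deposited, became lowest under the brain label. The shares over all genes were not computed again under rescaling.

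As a difference in log2(FPKM + 1) between a library and the mean of the other 4, the median over the 48 members was 0.52 under the skin label, 0.25 under the lung label, -0.23 under the limb label and -0.27 under the brain label. Over all genes with a mean level of at least 1000 FPKM the same medians were 0.16 under the skin label, 0.19 under the lung label, -0.01 under the limb label and -0.19 under the brain label. Over the 29 members of that level they were 0.49, 0.22, -0.20 and -0.38 in the same order. Over all genes with a mean level of at least 10 FPKM they were 0.03, 0.31, -0.03 and 0.36 in the same order, so the members and the bulk of genes lay on opposite sides of 0 under the brain label. The heart-labelled library had a median of -0.08 over the 48 members and -0.10 over the 29 with a mean of at least 1000 FPKM. Over all genes it was 0.12 at a mean of at least 10 FPKM and -0.11 at a mean of at least 1000 FPKM. Members and all genes of at least 10 FPKM thus lay on opposite sides of 0 there too, as deposited. The median over the 48 members became 0.08 with each library rescaled by its median ratio to the others. The scaling factor of the heart-labelled library was then -0.14 on the log2 scale.

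In the skin-labelled library 36 of the 42 nuclear members lay above the mean of the other 4, and all 23 of those with a mean of at least 1000 FPKM did. Over all genes the shares were 50.4% and 60.1%. The skin-labelled library was also the one with the fewest genes at 1 FPKM or more and the highest median of the values above 0, 38.7 FPKM, and the part of this in the members' level was not tested. The limb-labelled library had the next fewest genes, a median of 33.6 FPKM and a negative median over the members.

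**Figure D3:**
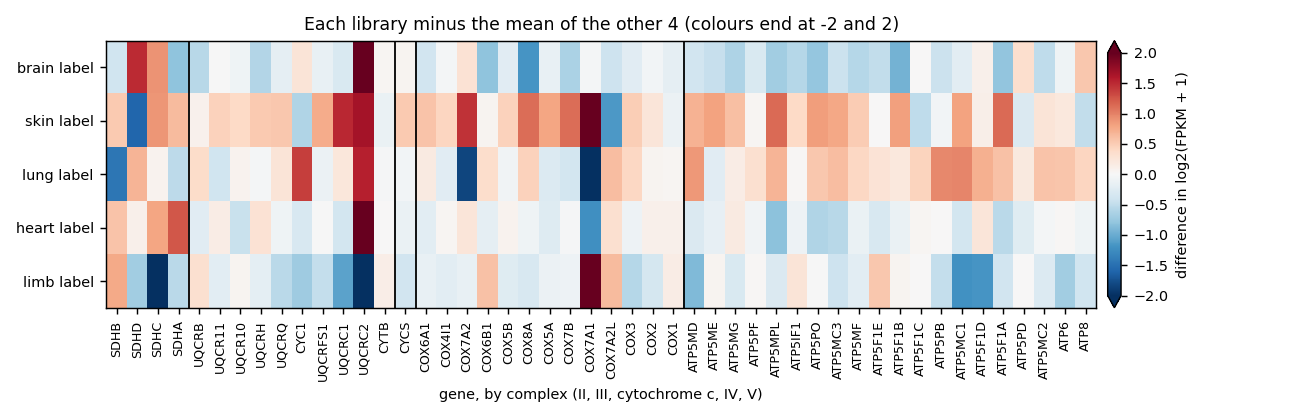
Difference in log2(FPKM + 1) between each library (rows) and the mean of the other 4, for 48 genes ordered by complex, with red above and blue below. The skin-labelled row is mostly red, with a median of 0.52, the brain-labelled row is mostly blue outside complex II, with a median of -0.27 over all 48, and the 4 red cells of UQCRC2 follow from its 0 under the limb label.

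Complex II had the lowest summed level of the 4 complexes, and its 4 subunits did not share an order of libraries. Its summed level was 1225 FPKM under the heart label, 1104 under the brain label, 1073 under the skin label, 913 under the limb label and 695 under the lung label, a ratio of 1.76 between the heart- and lung-labelled libraries. The ratio was 3.48 when SDHB, its most abundant subunit, was left out. SDHC and SDHD were highest under the brain label, SDHA under the heart label and SDHB under the limb label. Rescaling by the median ratio or the trimmed mean put SDHC highest under the heart label.

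SDHA, the flavoprotein that oxidises succinate, stood at 139.5 FPKM under the heart label, 98.5 under the skin label, 51.5 under the lung label, 51 under the limb label and 44.1 under the brain label. SDHB, the iron-sulphur subunit that carries the electrons on, stood at 702 FPKM under the limb label, 632 under the heart label, 620.2 under the skin label, 371 under the brain label and 206 under the lung label. The level of SDHB was thus 13.8 times that of SDHA under the limb label and 4.01 times under the lung label. SDHC and SDHD are the membrane anchors that hold haem and the site for ubiquinone.

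SDHC was listed at 281 FPKM under the brain label, 281 under the skin label, 265 under the heart label, 177 under the lung label and 39 under the limb label. The limb-labelled library stood apart here, since the next lowest was 4.55 times as high, while the top 3 differed little. SDHD was listed at 409 FPKM under the brain label, 259.5 under the lung label, 188 under the heart label, 121 under the limb label and 73.6 under the skin label. Its lowest library was the skin-labelled one, in which SDHC was close to its maximum. The level of SDHC over that of SDHD was 3.81 under the skin label and 0.323 under the limb label.

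Complex III was even in its small subunits and uneven in its core proteins. The summed level of its nuclear members was 21579.9 FPKM under the skin label, 18598 under the lung label, 16807 under the heart label, 16358 under the limb label and 15294 under the brain label, and the skin-labelled library was highest for 6 of the 9 nuclear genes. The limb-labelled library was lowest for 5 of the 9 (UQCRC1, UQCRC2, CYC1, UQCRFS1 and UQCRQ). Over all genes of at least 10 FPKM on average, 24.1% were highest under the skin label and 17.2% lowest under the limb label.

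The 2 core proteins, which face the matrix and are relatives of mitochondrial processing peptidases, were the only variable genes of the complex. UQCRC1 stood at 616 FPKM under the skin label, 303 under the lung label, 225 under the brain label, 217 under the heart label and 147 under the limb label, a ratio of 4.20 between the skin- and limb-labelled libraries. UQCRC2 stood at 265 FPKM under the brain label, 242 under the heart label, 182 under the skin label, 171 under the lung label and 0 under the limb label. Both core proteins were thus lowest under the limb label, and UQCRC2 varied little among the other 4. No ratio is given against a value listed at 0.

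The catalytic nuclear subunits are cytochrome c1 (CYC1), which hands electrons to cytochrome c, and the Rieske iron-sulphur protein (UQCRFS1). CYC1 stood at 1164 FPKM under the lung label, 624 under the brain label, 454 under the heart label, 387 under the skin label and 364 under the limb label. The lung-labelled library was 1.87 times the next highest, and the limb- and skin-labelled libraries were the lowest. UQCRFS1 stood at 819 FPKM under the skin label, 538 under the heart label, 506 under the lung label, 498 under the brain label and 414 under the limb label, with the skin-labelled library apart from the other 4.

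The 5 supernumerary subunits, small proteins around the core, were the most abundant nuclear members of the complex. UQCRB stood at 4988 FPKM under the lung label, 4845 under the limb label, 4238 under the skin label, 3591 under the heart label and 2982 under the brain label. UQCR11 stood at 4876 FPKM under the skin label, 4114 under the heart label, 3777 under the brain label, 3363 under the limb label and 3029 under the lung label. UQCR10 stood at 3894 FPKM under the skin label, 3248 under the lung label, 3203 under the limb label, 2971 under the brain label and 2434 under the heart label. All 3 kept within a ratio of 1.67. The hinge protein UQCRH, which helps to dock cytochrome c, stood between 3421 FPKM under the skin label and 1843 under the brain label, and UQCRQ between 3146 FPKM under the skin label and 1728 under the limb label. Under rescaling by the median ratio or the trimmed mean, UQCRH and UQCRC2 were highest under the heart label and UQCRB under the limb label.

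Cytochrome c (CYCS), the soluble carrier between complexes III and IV that also takes part in apoptosis, stood at 1870.3 FPKM under the skin label, 1442 under the brain label, 1359.6 under the lung label, 1306 under the heart label and 1129 under the limb label. The ratio of 1.66 between the skin- and limb-labelled libraries was within the range of the small subunits of complex III.

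Complex IV held the member that varied most among those above 0 in every library. The summed level of its nuclear members was 18836 FPKM under the skin label, 12586 under the limb label, 12127 under the heart label, 11813 under the lung label and 10649 under the brain label. The skin-labelled library stood apart, at 1.77 times the brain-labelled one, and the other 4 lay within a ratio of 1.18. Of the 10 nuclear genes with a mean level of at least 10 FPKM, 8 were highest under the skin label, against 24.1% of all genes of that level. The others, COX7A2L and COX6B1, were highest under the limb label. The lung-labelled library was lowest for 4 of the 10 (COX4I1, COX5A, COX7A1 and COX7A2), against 15.2% of all genes of that level. The median difference of this library from the other 4 was -0.15, against 0.49 for nuclear complex V.

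COX7A1 and COX7A2 are alternative isoforms of the small subunit 7A, the first known as the heart and skeletal muscle form and the second as the form of most other tissues. COX7A1 stood at 710.0 FPKM under the skin label, 525 under the limb label, 115 under the brain label, 59.3 under the heart label and 8.19 under the lung label. Its highest library was 86.7 times its lowest, with wide gaps between the upper pair, the middle pair and the lung-labelled library. The heart-labelled library held the second lowest value of this muscle isoform. COX7A2 stood at 3733 FPKM under the skin label, 1968 under the brain label, 1920.5 under the heart label, 1542 under the limb label and 602 under the lung label, a ratio of 6.20. The lung-labelled library was lowest for both isoforms, so the sum of the pair was 609.99 FPKM there, against 1980 to 4443 FPKM in the other 4. COX7A1 made up 25.4% of the sum of the 2 isoforms under the limb label, 15.98% under the skin label, 5.53% under the brain label, 2.99% under the heart label and 1.34% under the lung label.

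**Figure D4:**
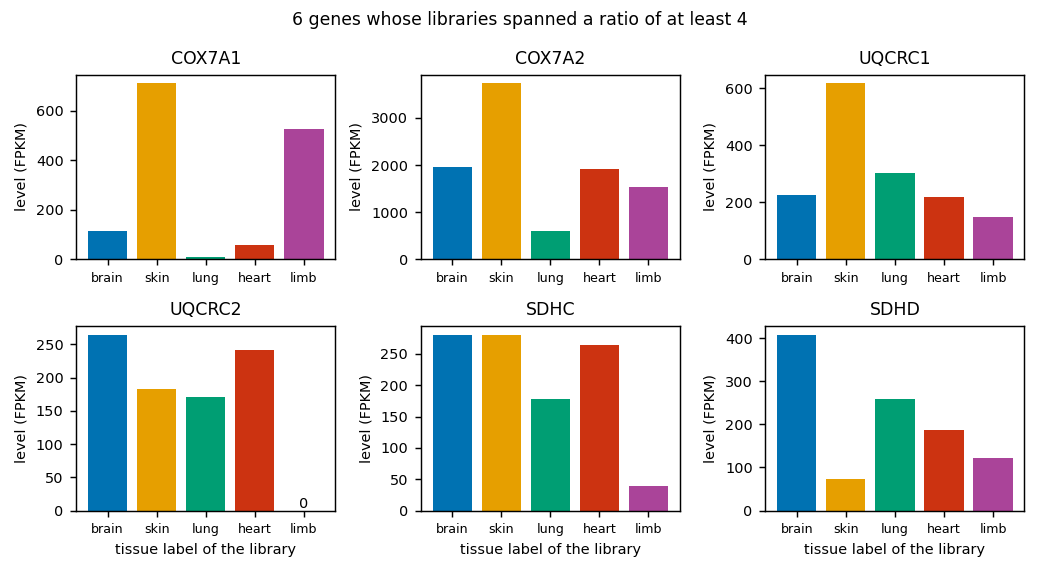
Level in FPKM of the 6 genes whose libraries spanned a ratio of at least 4, with 1 bar per library and a separate axis per gene. COX7A1 and COX7A2 share their lowest library, lung-labelled, with 8.19 and 602 FPKM, and UQCRC1, UQCRC2 and SDHC share theirs, limb-labelled, with 147, 0 and 39 FPKM.

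COX7A2L, a relative of subunit 7A that joins complexes III and IV into supercomplexes, stood at 206 FPKM under the limb label, 204 under the lung label, 172 under the heart label, 114 under the brain label and 75.6 under the skin label. Among nuclear genes of complex IV with a mean of at least 10 FPKM, it was the only one whose lowest value lay under the skin label. COX6A1, the general isoform of subunit 6A, stood at 4112 FPKM under the skin label, 3306 under the lung label, 2773 under the limb label, 2656 under the heart label and 2423 under the brain label. COX4I1, the general isoform of subunit 4, stood at 2859 FPKM under the skin label, 2302 under the heart label, 2192 under the brain label, 2008 under the limb label and 1988 under the lung label, and its 4 lower libraries lay within a narrow range. COX6B1, which faces the intermembrane space, stood at 2389 FPKM under the limb label, 2099 under the lung label, 1781 under the skin label, 1571 under the heart label and 1103 under the brain label, highest under the limb label.

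COX8A stood at 1853 FPKM under the skin label, 1279 under the lung label, 946 under the heart label, 833 under the limb label and 517 under the brain label, a ratio of 3.58 between the skin- and brain-labelled libraries. COX7B stood at 717 FPKM under the skin label, 381 under the heart label, 365 under the limb label, 316 under the lung label and 272 under the brain label. The skin-labelled library was 1.88 times the next highest in COX7B and 1.45 times in COX8A. COX5A, which takes part in regulation of the enzyme, stood between 1194 FPKM under the skin label and 666 under the lung label, and COX5B, the zinc-binding subunit, between 1802 FPKM under the skin label and 1220.3 under the limb label.

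The remaining isoforms of complex IV were near or at 0. COX6A2, the heart and skeletal muscle form of subunit 6A, COX4I2, a form of subunit 4 known from human and rodent lung, and COX7B2, known from human testis, were listed at 0 in all 5 libraries, the heart- and lung-labelled ones included. COX8B, the muscle form of subunit 8, was listed at 8.32 FPKM under the lung label, at 5.54 FPKM under the brain label and at 0 in the other 3 libraries. COX6B2, known from human testis, was listed at 4.55 FPKM under the heart label and at 0 in the other 4. These 5 genes are the members with a mean under 10 FPKM. A gene listed at 0 can be expressed below the level these libraries show. COX6C and COX7C, further nuclear subunits of the complex, were not analysed here.

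Complex V had the highest summed level of nuclear members, at 48111 FPKM under the skin label, 43622 under the lung label, 30929 under the limb label, 30342 under the heart label and 26415 under the brain label. The skin- and lung-labelled libraries stood above the other 3, with a ratio of 1.82 between the skin- and brain-labelled libraries. None of its 18 nuclear genes was variable. Of the 18, 9 were highest under the skin label, 7 under the lung label, 1 under the limb label and 1 under the brain label. The corresponding shares of all genes averaging 10 FPKM or more were 24.1%, 25.4%, 18.9% and 17.7%. Under the brain label 10 of the 18 were lowest. Of all genes 9.04% were lowest there, and 29.4% of those averaging 1000 FPKM or more. The counts of the 18 were not divided by level. In the lung-labelled library 17 of the 18 lay above the mean of the other 4, as did 4 of 10 for nuclear complex IV and 55.9% of all genes with a mean level of at least 10 FPKM. The difference between the 2 complexes was not tested.

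The catalytic head of the enzyme is built from the alpha and beta subunits. ATP5F1A (alpha) stood at 882 FPKM under the skin label, 651 under the lung label, 383 under the limb label, 351 under the heart label and 303 under the brain label. ATP5F1B (beta) stood at 1671 FPKM under the skin label, 1197 under the lung label, 1089 under the limb label, 982 under the heart label and 626 under the brain label. Both followed the same order in their top pair and their lowest library, and their summed level was 2.75 times as high under the skin label as under the brain label, the widest ratio among the subgroups of complex V. The level of ATP5F1B was between 1.84 times that of ATP5F1A, under the lung label, and 2.85 times, under the limb label.

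The central stalk, which turns inside the head, did not share this pattern. ATP5F1C (gamma) stood at 1028 FPKM under the lung label, 817 under the heart label, 806 under the brain label, 801 under the limb label and 606 under the skin label, with the skin-labelled library lowest. ATP5F1D (delta) stood at 728 FPKM under the lung label, 562 under the heart label, 524 under the skin label, 519 under the brain label and 255 under the limb label, with the limb-labelled library apart below the rest. ATP5F1E (epsilon) stood at 2008 FPKM under the limb label, 1722 under the lung label, 1485 under the skin label, 1238 under the heart label and 1132 under the brain label, highest under the limb label. The sum of the 3 had a ratio of 1.42 between the lung- and brain-labelled libraries.

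ATP5MC1, ATP5MC2 and ATP5MC3 encode the same mature subunit c, which forms the rotating ring in the membrane, with different targeting sequences. ATP5MC3 stood at 3358 FPKM under the skin label, 3097 under the lung label, 1748 under the limb label, 1729 under the brain label and 1619.6 under the heart label. ATP5MC1 stood at 1034 FPKM under the lung label, 941 under the skin label, 533 under the brain label, 491 under the heart label and 306 under the limb label. ATP5MC2 stood at 398 FPKM under the lung label, 336 under the skin label, 284 under the heart label, 250.0 under the limb label and 219 under the brain label. ATP5MC3 supplied between 67.7% of the sum of the 3, under the heart label, and 75.9%, under the limb label. ATP5MC1 supplied 13.3% under the limb label and 20.3% to 22.8% in the others. The 3 genes share coding sequence, so the division of reads between them is uncertain.

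The peripheral stalk holds the head still against the turning ring. ATP5PO, the subunit that confers sensitivity to oligomycin, stood at 3679 FPKM under the skin label, 3130.4 under the lung label, 2321 under the limb label, 1668 under the heart label and 1515 under the brain label. ATP5PF (factor 6) stood between 3593 FPKM under the lung label and 2541 under the brain label, and ATP5PB (subunit b) between 1241 FPKM under the lung label and 557 under the limb label. ATP5PD (subunit d) was an exception to the skin-labelled pattern, at 566 FPKM under the brain label, 521 under the lung label, 469 under the limb label, 410.1 under the heart label and 400.2 under the skin label. Its ratio of 1.41 was among the smallest of the nuclear members.

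The small membrane subunits, several of which help ATP synthase to form dimers, included ATP5MD and ATP5ME, the most abundant nuclear members by mean level. ATP5MD (DAPIT, now named ATP5MK in RefSeq) stood at 9137 FPKM under the lung label, 8322 under the skin label, 4822 under the heart label, 4583 under the brain label and 3479 under the limb label. ATP5ME (subunit e) stood at 7287 FPKM under the skin label, 4830.4 under the limb label, 4268 under the heart label, 4130.4 under the lung label and 3619 under the brain label. ATP5MG (subunit g) stood at 4452 FPKM under the skin label, 3514 under the heart label, 3438 under the lung label, 2683 under the limb label and 2248 under the brain label. The order of libraries differed between these subunits, with the limb-labelled library lowest for ATP5MD and second for ATP5ME. ATP5MPL (now ATP5MJ), a small proteolipid of the complex, stood between 4897 FPKM under the skin label and 1652 under the heart label, and ATP5MF (subunit f) between 2323 FPKM under the skin label and 1271 under the brain label. ATP5IF1, the inhibitor that blocks ATP hydrolysis by the enzyme, stood at 3172 FPKM under the skin label, 2929 under the limb label, 2584 under the lung label, 2413 under the heart label and 1858 under the brain label. The level of ATP5IF1 was 2.97 times that of its target subunit ATP5F1B under the brain label and 1.90 times under the skin label.

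The 6 mitochondrially encoded members went both ways under the skin label. COX3, COX2 and ATP6 lay above the mean of the other 4 libraries there, and CYTB, COX1 and ATP8 below it. The median difference over the 6 was 0.04, against 0.54 for the 42 nuclear members, and it lay between -0.03 and -0.0022 under the 3 rescalings. The comparison of the 2 groups of genes was not tested. CYTB, the cytochrome b of complex III, stood at 2744 FPKM under the limb label, 2605 under the brain label, 2563 under the heart label, 2521 under the lung label and 2377 under the skin label. With a ratio of 1.15 it was the most even of the 48 members, and the skin-labelled library was lowest. COX1, the catalytic subunit of complex IV, stood at 6833 FPKM under the limb label, 6651 under the heart label, 6434 under the lung label, 5865 under the skin label and 5676 under the brain label, a ratio of 1.204.

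The other mitochondrially encoded genes spread more widely. COX2, which takes electrons from cytochrome c, stood at 11742 FPKM under the skin label, 10793 under the heart label, 10552 under the lung label, 9951 under the brain label and 8407 under the limb label. COX3, a further core subunit, stood at 19897 FPKM under the skin label, 19099 under the lung label, 14264 under the heart label, 13374 under the brain label and 11027 under the limb label. Both were highest under the skin label and lowest under the limb label. ATP6 (subunit a, which holds the proton path) stood at 8298 FPKM under the lung label, 6830.0 under the skin label, 6136 under the heart label, 5789 under the brain label and 4123 under the limb label. ATP8, a small subunit beside it, stood at 1916 FPKM under the brain label, 1808 under the lung label, 1358 under the heart label, 1143 under the limb label and 1082 under the skin label. ATP6 was also lowest under the limb label, while CYTB and COX1 were highest there as deposited. Under rescaling by the median ratio or the trimmed mean, the heart-labelled library was highest for CYTB, COX1 and COX2, and with the total taken without mitochondrial and haemoglobin genes, the brain-labelled library was highest for CYTB and the heart-labelled one for COX1.

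Mitochondrial genes are copied as long precursors from which the single messengers are cut, yet their levels were unequal from library to library. The level of COX3 over that of COX1 was 3.39 under the skin label, 2.97 under the lung label, 2.36 under the brain label, 2.14 under the heart label and 1.61 under the limb label. ATP6 and ATP8 overlap on 1 messenger, so their division is uncertain, and the ratio of their levels was highest at 6.31 under the skin label and lowest at 3.02 under the brain label. These ratios are within a library and do not depend on its scaling. Copies of mitochondrial genes and processed copies of nuclear respiratory genes elsewhere in the genome can share reads with the members, and how the authors' counting divided them is not stated.

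**Figure D5:**
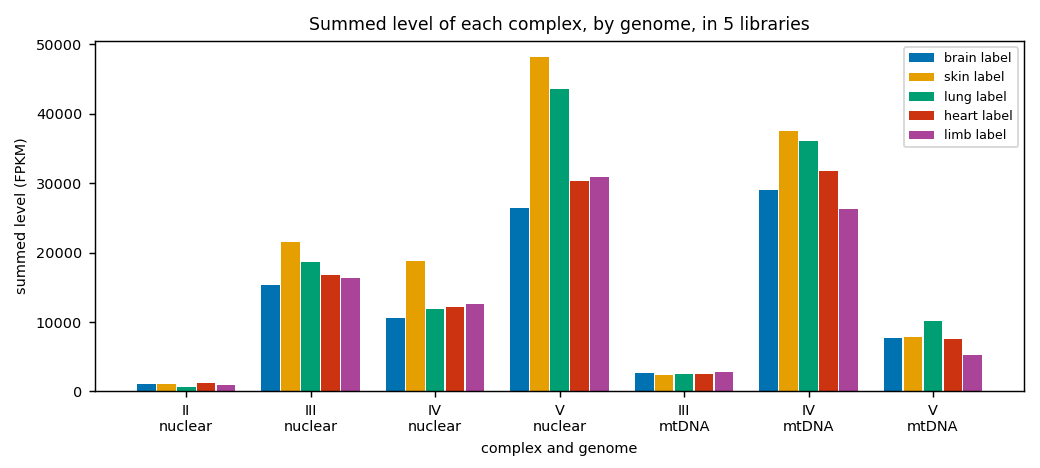
Summed level in FPKM of the nuclear and the mitochondrially encoded (mtDNA) genes of each complex, with 1 bar per library. The nuclear sums of complexes III, IV and V are highest under the skin label, and the mitochondrially encoded sum of complex V is highest under the lung label and lowest under the limb label, at 10107 and 5266 FPKM.

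Within a library, the mitochondrially encoded genes of complex IV outweighed its nuclear genes. The ratio of the sums was 3.05 under the lung label, 2.72 under the brain label, 2.61 under the heart label, 2.09 under the limb label and 1.99 under the skin label. The nuclear sum holds no value for COX6C or COX7C, so these are upper values. For complex V the ratio was 0.292 under the brain label, 0.247 under the heart label, 0.232 under the lung label, 0.170 under the limb label and 0.164 under the skin label. For complex III, with CYTB alone on the mitochondrial side, it was 0.170 under the brain label, 0.168 under the limb label, 0.153 under the heart label, 0.136 under the lung label and 0.110 under the skin label. In all 3 complexes the skin-labelled library had the lowest ratio of sums. With medians in place of sums the limb-labelled library was lowest for complex V.

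Factors that assemble the complexes were described next. All 4 factors of complex II were measured, and 3 were variable, each with a mean between 10 and 100 FPKM, where 90.1% of all genes were. SDHAF4, which readies SDHA for assembly, stood at 128 FPKM under the lung label, 77.3 under the limb label, 31 under the brain label, 19.1 under the heart label and 18.2 under the skin label, and SDHAF1, which helps to insert the iron-sulphur clusters, at 74.8 FPKM under the lung label, 37.3 under the brain label, 2.4 under the heart label, 1.4 under the skin label and 0 under the limb label. The lung-labelled library was highest for SDHAF1, SDHAF3 and SDHAF4, while the summed subunits of complex II were lowest there. All 5 measured factors of complex III, with means in the same range, were variable too, which is near that background of 90.1%. BCS1L, which inserts the Rieske protein, was listed at 47.7 FPKM under the heart label, 11.7 under the brain label, 1.01 under the lung label, 0 under the skin label and 0 under the limb label. UQCC1 was listed at 148 FPKM under the limb label, 80.8 under the skin label, 74.2 under the lung label, 49.4 under the heart label and 0 under the brain label.

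Of the 26 measured genes of complex IV assembly, 21 had a mean of at least 10 FPKM and 10 of these were variable. By level these were 6 of 7 genes between 10 and 100 FPKM, against 90.1% of all genes, 4 of 12 between 100 and 1000 FPKM, against 44.6%, and 0 of 2 above that, against 11%. The copper chaperone COX17 stood at 755 FPKM under the limb label, 613 under the skin label, 465 under the lung label, 456 under the heart label and 439 under the brain label and was not variable. SURF1, needed early in assembly, stood at 513 FPKM under the lung label, 152 under the brain label, 72.2 under the heart label, 68.2 under the limb label and 60.1 under the skin label, with the lung-labelled library above the other 4. HIGD1A had 2 identifiers with identical values, which were counted once. NDUFA4, a protein first assigned to complex I and since to complex IV, stood at 1847 FPKM under the lung label, 1805 under the skin label, 1791 under the limb label, 1421 under the brain label and 1406 under the heart label. All 5 factors of complex V assembly with a mean of at least 10 FPKM, of 6 measured, were variable, in a level range of 10 to 100 FPKM where 90.1% of all genes were.

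Among 17 regulators of mitochondrial gene expression, 8 had a mean of at least 10 FPKM and 5 of these were variable (GABPA, TFAM, TFB1M, TFB2M and YY1). The 5 were among 7 regulators between 10 and 100 FPKM, where 90.1% of all genes were variable. SLIRP, which stabilises mitochondrial messengers together with LRPPRC, stood at 1645 FPKM under the skin label, 1613 under the heart label, 1603 under the lung label, 1452 under the limb label and 1344 under the brain label, and its partner LRPPRC at 45.1 FPKM under the brain label, 41.5 under the lung label, 24.6 under the skin label, 19 under the heart label and 17.6 under the limb label. SLIRP was nearly as even as COX1, with a ratio of 1.22 after adding 1. TFAM, which packages mitochondrial DNA and starts its transcription, stood at 43.5 FPKM under the lung label, 21.6 under the skin label, 7.91 under the brain label, 5.86 under the heart label and 0 under the limb label. NRF1, PPARGC1A and PPARGC1B, known as activators of nuclear respiratory genes, and MTERF1 were listed at 0 in all 5 libraries.

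The nuclear and mitochondrially encoded genes of complex I, which feeds electrons from NADH into the same chain, had medians on the same side of 0 as the members in the skin-, lung-, brain- and limb-labelled libraries. Over 45 genes with a mean level of at least 10 FPKM these were 0.44 under the skin label, 0.36 under the lung label, -0.09 under the limb label and -0.30 under the brain label, and 5 of the 45 were variable. Under the heart label the median of complex I was -0.25 and stayed below 0 under all 3 rescalings. The members' median there, -0.08 as deposited, was above 0 under rescaling by the median ratio or the trimmed mean. The 75 mitochondrial ribosomal protein genes of that level had medians of 0.22 under the skin label, 1.01 under the lung label and 0.24 under the brain label, and 47 of them were variable. The 86 cytosolic ribosomal protein genes of that level had medians of 0.01 under the skin label, which was below 0 under all 3 rescalings, 0.55 under the lung label and -0.26 under the brain label, close to the -0.27 of the members, and 6 were variable. The 7 mitochondrially encoded genes of complex I alone summed to 23232 FPKM under the skin label, 21465 under the lung label, 15979 under the heart label, 13845 under the limb label and 12614 under the brain label. The medians of the mitochondrial and the cytosolic ribosomal protein genes were -0.17 and -0.18 under the heart label. Under the limb label they were -0.16 and -0.05. These differences between gene groups were not tested.

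The count of variable members rested on single libraries. Without the skin-labelled library 3 remained (COX7A1, SDHC and UQCRC2), and without the limb-labelled library 3 remained (COX7A1, COX7A2 and SDHD). COX7A1 was variable whichever 1 of the 5 libraries was left out.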

How the data were processed

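The deposited table holds 27607 genes and 5 libraries. The submitters' processing notes name bcl2fastq, the aligner STAR, the quantifier RSEM and the ARS-UCD1.2 build, without versions, annotation or filters. The deposited values were taken as FPKM by elimination, since no source names the unit, 98.7% to 99.1% of the values above 0 are not whole numbers, and the library sums, 1072430.5 to 1172798, exceed the fixed total of TPM. HIGD1A is listed more than once with identical values, and rows repeated in this way would also raise the sums. The sums alone therefore do not exclude TPM. Column names matched the sample titles.

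Members were found by symbol, and a RefSeq table of a later assembly (ARS-UCD2.0) held 51 under the same symbol and 2 as a synonym; no coordinates or sequences are given. Values were used as deposited in Python 3.11.15 with pandas 2.3.3, with no count model and no test. The pseudocount was 1 FPKM, the minimum mean 10 FPKM and the ratio for a call 4. The rules for calling genes variable, enriched or depleted were run on simulated data with known ratios, which checks the calculation only. Their error in the deposited libraries, where many genes are listed at 0, was not tested. Named with all 5 values were variable members, members listed at 0, the 3 most abundant of each complex, mitochondrially encoded members, complex II, CYC1, CYCS and paralogue families; other genes named were chosen after their values were seen. The members and lists were chosen with earlier results of these data known. Alternatives were other pseudocounts, ratios and minimums, 3 rescalings and each library left out.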

Additional observations from a re-analysis of the deposited data

How the results depend on the processing

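Of 234 alternative values for 35 results, 202 kept their direction and stayed within 1.5 times the reported value (0.58 on the log2 scale for medians). Every reported median was smaller than 0.58 in size, so a shrinking median could fail only by changing sign. A ratio of sums cannot change where the library left out is neither highest nor lowest. The count of 202 is therefore no measure of how stable the results are. Variable members numbered 24 at a ratio of 2, 2 at a ratio of 8, and 3 to 6 with 1 library left out. Members listed at 0 in a library numbered 2 at a minimum mean of 1 FPKM and 0 to 1 with 1 library left out. Enriched members, 0 as reported, numbered 1 at a ratio of 2 and 0 to 1 with 1 library left out. Depleted members, 3 as reported, numbered 1 at a pseudocount of 10, 5 at a ratio of 2, 1 at a ratio of 8, and 1 to 3 with 1 library left out. The ratio of the summed level of complex II between libraries was 3.48 without SDHB. The heart-labelled median, -0.08 as reported, was 0.085 under rescaling by the median ratio, 0.0786 by the trimmed mean, and between -0.16 and 0.0063 with 1 library left out of the comparison, the last without the skin-labelled one. The members' medians in the skin-, lung-, limb- and brain-labelled libraries kept their sign under every alternative run. With medians in place of sums, the mitochondrially encoded over nuclear ratio was 1.41 in the brain-, 0.756 in the skin-, 1.01 in the lung-, 1.16 in the heart- and 1.59 in the limb-labelled library for complex III. It was 11.0, 6.55, 10.9, 9.02 and 8.19 in the same order for complex IV, and 3.21, 1.98, 2.58, 2.63 and 1.60 for complex V. The cause of these shifts was not tested, beyond that fewer libraries or another threshold enter a count by construction. The alternatives for enriched and depleted members and for the counts of members highest or lowest in a library were chosen after seeing the data; 23 to 28 nuclear members were highest in the skin-labelled library and 16 to 23 lowest in the brain-labelled library under them. No paired analysis was possible because each label has 1 library. Without read counts, no counting error is known for any value.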
